A study of Mus musculus with 14 samples.

Results

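The claudin genes examined here are Cldn1, Cldn3, Cldn4, Cldn5, Cldn6, Cldn7, Cldn9, Cldn10, Cldn11 and Cldn12. They were chosen by name, to ask whether a large increase of Cldn1 seen in these data was shared by its family. Of these 10 genes, 7 had a value on at least 1 of the days studied, out of 16060 genes with a value in all. At D5 there were 7 (Cldn1, Cldn3, Cldn4, Cldn6, Cldn7, Cldn10 and Cldn12) and at D10 there were 6, the same genes without Cldn10. Cldn5, Cldn9 and Cldn11 had no value on either day, so their expression could not be analysed here. The D5 values of the family were known when it was chosen, so they are given as a description and support nothing by themselves.

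The RNA came from mouse embryonic stem cells of the GLI1-FTA line, in the A2Lox.cre background, which were taken through neural differentiation in culture. Induced cells received doxycycline at 500 ng/ml for 48 h, from day 3 to day 5, which switches on GLI1, a zinc-finger activator at the end of the Hedgehog pathway. Control cells of the same line were untreated, so doxycycline and GLI1 changed together. There were 4 induced and 4 control libraries of neural progenitors at D5, and 3 induced and 3 control libraries of immature neurons at D10, after the drug had been washed out. The data hold the authors' comparison of the groups on each day and no value per library, so neither the depth of a sample nor the spread between libraries can be shown; the depth is unknown. Whether the replicates were separate cultures is not stated, so the authors' p-values concern the spread between these samples, which may be technical. Induced Gli1 was checked first. It had a log2 fold change of 4.79 at D5 in the authors' deposited table, a value in which reads of the transgene and of the endogenous gene are not told apart.

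Claudins are membrane proteins that line up in strands between neighbouring cells and form the core of tight junctions, the seals of an epithelial sheet. Some claudins close the gap between cells and others form pores for selected ions, so the mix of claudins sets how leaky a sheet is. Occludin and other membrane proteins join the strands, and scaffold proteins such as that encoded by Tjp1 tie them to the actin skeleton. In mouse and chick embryos the neural plate loses occludin-bearing tight junctions as it closes into a tube, while the neural cells keep adherens junctions and the Tjp1 protein.

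The family is shown first at the sequence level, since a read of 50 bases can only be given to 1 gene where the copies differ. The stretch printed for each measured gene is the most conserved 60 bases of the aligned coding sequences, from GENCODE M21 transcripts on the GRCm38 build. Each lies within 1 coding exon and is written 5′ to 3′ on the coding strand, and capitals mark the 14 bases that are the same in all 7 genes.
Cldn1 chr16:26371457-26371516 (minus strand): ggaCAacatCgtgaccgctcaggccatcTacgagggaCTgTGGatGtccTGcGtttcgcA
Cldn3 chr5:134986552-134986611 (plus strand): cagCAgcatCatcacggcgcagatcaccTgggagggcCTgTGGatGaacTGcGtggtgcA
Cldn4 chr5:134946576-134946635 (minus strand): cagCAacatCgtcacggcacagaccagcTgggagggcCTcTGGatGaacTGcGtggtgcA
Cldn6 chr17:23681174-23681233 (plus strand): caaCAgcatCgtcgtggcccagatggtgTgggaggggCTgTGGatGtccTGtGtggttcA
Cldn7 chr11:69966037-69966096 (plus strand): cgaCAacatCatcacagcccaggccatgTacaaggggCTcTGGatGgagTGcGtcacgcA
Cldn10 chr14:118855097-118855156 (plus strand): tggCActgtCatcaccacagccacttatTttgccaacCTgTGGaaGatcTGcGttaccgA
Cldn12 chr5:5508244-5508303 (minus strand): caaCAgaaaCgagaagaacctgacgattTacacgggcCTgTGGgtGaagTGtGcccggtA
Even there, Cldn7 differed from Cldn1 at 14 of the 60 bases, the fewest among these genes, and Cldn10 at 30, the most. Over the whole coding sequence Cldn7 was also the nearest relative of Cldn1, with 66.3% identity over 627 aligned bases. The closest pair of all was Cldn3 and Cldn4 with 71.0% identity, and the most distant was Cldn10 and Cldn12 with 35.5%. None of the 50-base words in the representative transcript of any of the 10 claudins was found in a transcript of another annotated gene, on either strand. Of these transcripts, that of Cldn3 was the one whose exons overlapped another annotated gene, Wbscr25 on the opposite strand. Its values are uncertain for that reason, because the labels' protocols call the reads stranded but nothing says whether strand was used in counting.

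Cldn1, a claudin that seals epithelia such as the epidermis, was far higher in induced cells at D5. Its log2 fold change was 4.99 in the authors' deposited table (adjusted p = 1.49e-56). That is a 31.8-fold difference, with an implied standard error (SE) of 0.31 on the log2 scale. The implied SE was derived here from the authors' p and is not a replicate SD. The 95% interval from it ran from 20.96-fold to 48.2-fold. Cldn1 ranked 7 of 15108 genes by fold change and 13 by p in the authors' deposited table for D5. It had an average of 2.80 on the log2 scale of CPM, the count scaled to the library total, in the authors' deposited table. A level for each group can be derived from the average and the fold change. It came to 13.5 CPM in induced cells and 0.426 CPM in control cells at D5. If the average is instead read as a mean of logs, the derived levels are 39.3 CPM in induced cells and 1.24 CPM in control cells. These levels have no error of their own.

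No other measured claudin shared that increase at D5. Of the 7 measured members, 1 was called higher (Cldn1), 0 lower and 6 did not pass at an adjusted p under 0.05, in a table where 4.44% of all genes were called (2.34% higher and 2.10% lower). Of the 7, 5 had a log2 fold change below 0. The median over the 7 was -0.38, and over the 6 other than Cldn1 it was -0.43, beside 0.0015 over all genes of the authors' deposited table. The upper ends of the 95% intervals of these 6 ran up to 0.87 on the log2 scale, the value for Cldn10, against a lower end of 4.39 for Cldn1.

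**Figure D1:**
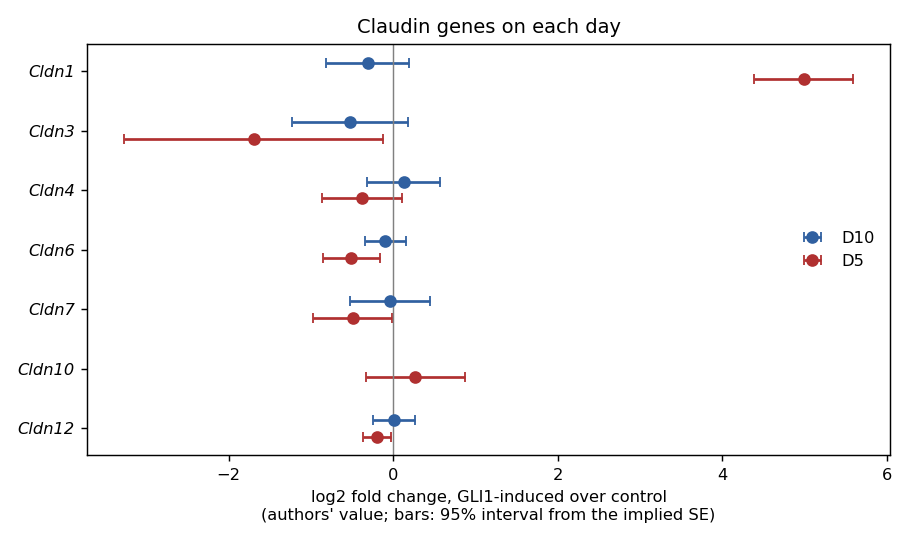
Log2 fold change of induced over control cells (x axis) for each claudin with a value (y axis), at D10 in blue above and D5 in red below, with 95% intervals from the implied SE. Cldn1 at D5 stands alone at 4.99, while the other intervals at D5 end at or below 0.87 and the 6 at D10 all span 0.

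Cldn6, a claudin of early embryonic epithelia, lay lowest by p among the remaining members. It had a log2 fold change of -0.51 at D5 in the authors' deposited table (adjusted p = 0.0878, implied SE 0.18). Its derived levels were 63.8 CPM in induced cells and 90.7 CPM in control cells. Cldn6 did not pass as deposited, but did after the z values from the authors' deposited table were rescaled within bins of expression (adjusted p = 0.00570). With that rescaling 771 of all 15108 genes passed at D5. The family was chosen with its D5 values known, so nothing is read from this pass. Cldn7, a claudin of many simple epithelia and the nearest relative of Cldn1, stood at -0.49 in the authors' deposited table (adjusted p = 0.442). Its direction was opposite to that of Cldn1, with derived levels of 5.09 CPM in induced cells and 7.15 CPM in control cells.

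Cldn3 and Cldn4, neighbouring genes that encode receptors for a clostridial enterotoxin, were also below 0. Cldn4 had a log2 fold change of -0.38 in the authors' deposited table (adjusted p = 0.764), with 4.18 CPM in induced cells and 5.42 CPM in control cells. Cldn3 had the largest negative value, -1.70 in the authors' deposited table, but it rested on very few reads (adjusted p = 0.377, implied SE 0.80). Its average log2 CPM was -1.91 in the authors' deposited table, near the lowest value of any gene at D5, -2.35. The derived levels of Cldn3 were 0.125 CPM in induced cells and 0.407 CPM in control cells, so its size is poorly known. Cldn12, a widely expressed claudin, stood at -0.20 in the authors' deposited table (adjusted p = 0.280) and was the most precisely measured member (implied SE 0.088). Cldn10, which forms ion-selective channels in the kidney, was the one other member above 0, at 0.27 in the authors' deposited table (adjusted p = 1).

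At an unadjusted p under 0.05, 4 of the 7 were lower (Cldn3, Cldn6, Cldn7 and Cldn12), in a table where 5.83% of all genes met that mark. The family was chosen with these values known, so nothing is read from that count.

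**Figure D2:**
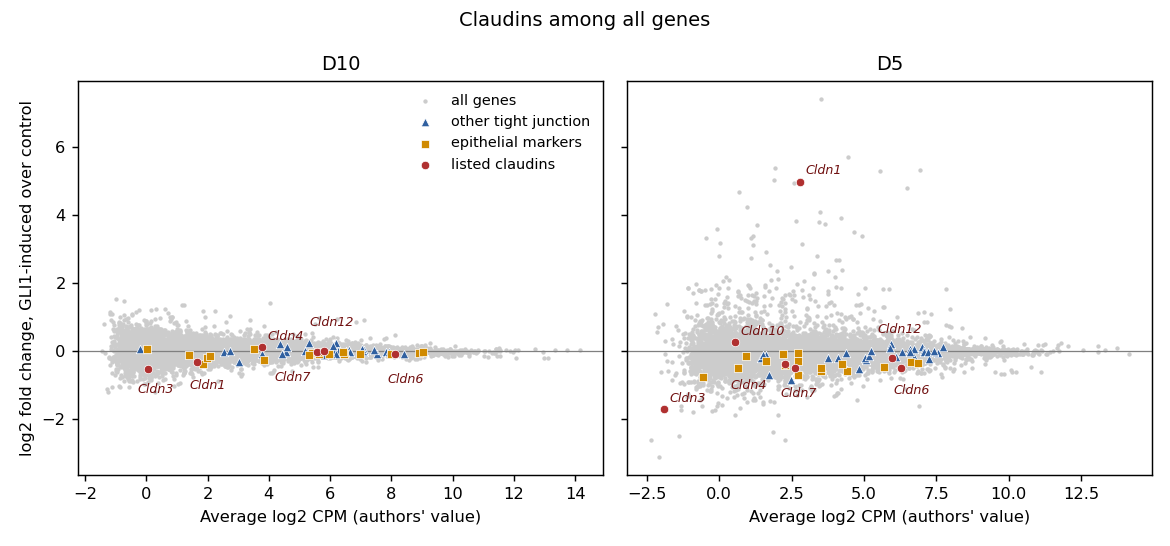
Log2 fold change of induced over control cells (y axis) against average log2 CPM (x axis) for all genes at D10 (left) and D5 (right), with listed claudins, other tight junction genes and epithelial markers in colour. At D5 Cldn1 is the one coloured gene among the large increases, and at D10 all coloured genes lie within 0.53 of 0.

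Cldn1 was no longer higher at D10. Its log2 fold change was -0.31 in the authors' deposited table (adjusted p = 1, unadjusted p = 0.229), with an implied SE of 0.26. The 95% interval ran from -0.81 to 0.19, which leaves out an increase of more than 1.14-fold. The derived levels were 2.82 CPM in induced cells and 3.50 CPM in control cells. The difference of the log2 fold changes, D10 minus D5, was -5.30 with an implied SE of 0.40. It is given without a test, since the gene was chosen for its value at D5.

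The other claudins also lay close to 0 at D10. Of the 6 measured members, 0 were called in the authors' deposited table and 0 had an unadjusted p under 0.05. After rescaling, 0 passed as well, where 121 of all 15744 genes did. Among all genes 0.0826% were called at D10 and 1.53% had an unadjusted p under 0.05. A count of 0 of 6 is thus near the background. Cldn6 stood at -0.09, Cldn7 at -0.04 and Cldn12 at 0.0075 in the authors' deposited table. Cldn4 stood at 0.13 and Cldn3 at -0.52 in the authors' deposited table. The median over the 6 was -0.06, beside 0.0027 over all genes of the authors' deposited table. The 95% intervals of the 6 all included 0, and the widest, that of Cldn3, ran from -1.23 to 0.18. A share of 1.53% at a threshold of 0.05 is low even if no gene differed. The authors' p-values at D10 may thus be too large, and intervals derived from them too wide. That 0 members passed and all intervals included 0 is therefore weak evidence of no change.

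For Cldn3, Cldn4, Cldn6, Cldn7 and Cldn12 the D10 value was above the D5 value, by 0.21 to 1.17 on the log2 scale. The 95% interval of each of these differences included 0. The largest against its error was that of Cldn6, 0.41 with an implied SE of 0.22.

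The order of abundance was read per length, as derived CPM per kilobase of the representative transcript, averaged over both groups. At D10 Cldn6 came first with 170.3, followed by Cldn7 with 35.9, Cldn12 with 14.7, Cldn4 with 7.57, Cldn1 with 0.974 and Cldn3 with 0.831 CPM per kilobase. At D5 Cldn6 was also first with 47.6, followed by Cldn12 with 16.5, Cldn7 with 4.58, Cldn4 with 2.64, Cldn1 with 2.15, Cldn10 with 0.692 and Cldn3 with 0.211 CPM per kilobase. Without values per library, it cannot be said which neighbours in these orders differ beyond their spread. Cldn1 took its place at D5 through the induced cells, with 4.17 CPM per kilobase there and 0.131 in control cells. In control cells Cldn1 and Cldn3 were the lowest of the 7 at D5, with 0.323 CPM per kilobase for Cldn3. Read as a mean of logs, the average would put Cldn1 behind Cldn6 and Cldn12 at D5, with 6.25 CPM per kilobase over both groups, above Cldn7 with 4.65. In control cells Cldn1 and Cldn3 would then be level at 0.381 and 0.380 CPM per kilobase.

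Levels on the 2 days come from tables that were normalised separately, so they are described without a test. Cldn7 was 9.31-fold higher at D10 than at D5 in induced cells and 6.79-fold higher in control cells. Cldn6 was 4.19-fold higher at D10 in induced cells and 3.14-fold higher in control cells. Cldn12 differed little, at 0.963 of its D5 level in induced cells and 0.834 in control cells. Cldn1 went opposite ways, with 2.82 CPM at D10 against 13.5 CPM at D5 in induced cells, and 3.50 CPM at D10 against 0.426 CPM at D5 in control cells. Control cells thus held 8.22-fold more Cldn1 at D10 than at D5, or 2.84-fold more if the average is read as a mean of logs. The level in induced cells at D5 was above that of either group at D10. The median shift of average log2 CPM from D5 to D10 over all shared genes was 0.0053. Both days are scaled to library totals, so this value does not show that levels can be compared between them.

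**Figure D3:**
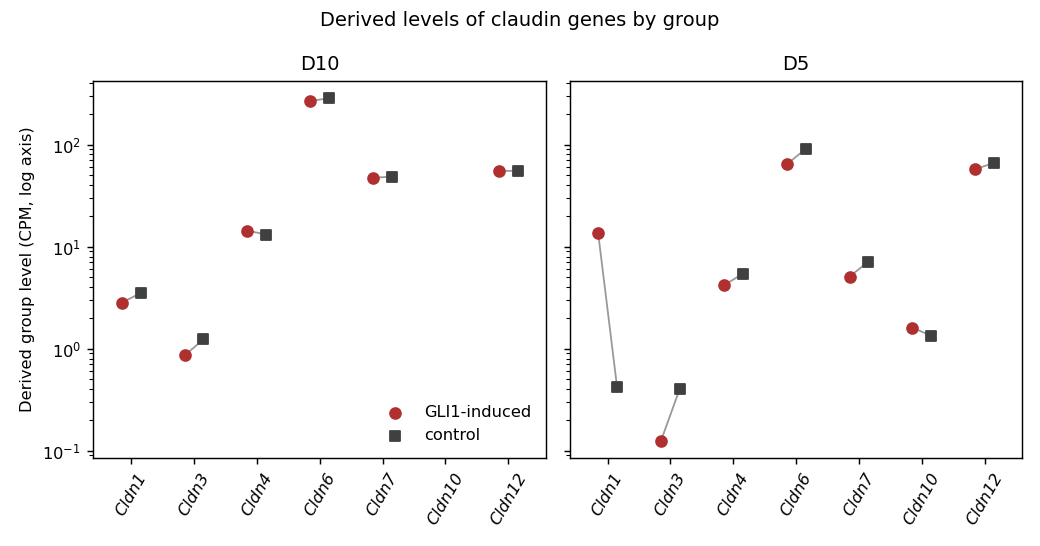
Derived level of each claudin (x axis) in CPM on a log axis, in induced cells (red circles) and control cells (dark squares) at D10 (left) and D5 (right); lines join the groups. The gap for Cldn1 at D5, 13.5 CPM in induced cells and 0.426 CPM in control cells, has no counterpart at D10 or in another claudin; Cldn10 has no value at D10.

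Claudins outside the list, most of them at low levels, did not pass on either day. At D10 these were Cldn2 at -0.39, Cldn23 at -0.43, Cldn34c1 at 0.41, Cldn34c2 at 0.25 and Cldn34c3 at 0.09 in the authors' deposited table (each adjusted p = 1). At D5 Cldn34c1 stood at 0.46 and Cldn34c3 at 0.0053 in the authors' deposited table. The Cldn34c genes belong to a group of near copies, so their reads may be split among them. Their average log2 CPM did not exceed 2.52 on either day.

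Other genes of the tight junction were next compared, from a list of 35 that was written with earlier results of these data known. At D5, 32 were measured, of which 0 were higher, 2 lower and 30 did not pass in the authors' deposited table. A share of 2.10% of all genes was called lower that day. Of the 32, 23 were below 0, against 7473 of all 15108 genes, and the median was -0.09. Ocln, which encodes occludin, fell by 0.84 on the log2 scale in the authors' deposited table (adjusted p = 0.00837, implied SE 0.23). Its derived levels were 3.98 CPM in induced cells and 7.11 CPM in control cells. Patj, a scaffold of the apical Crumbs complex, fell by 0.55 in the authors' deposited table (adjusted p = 0.0189, implied SE 0.16). The junctional adhesion gene F11r stood at -0.52 (adjusted p = 0.0920) and the tricellular junction gene Marveld2 at -0.71 (adjusted p = 0.174) in the authors' deposited table, and neither passed.

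Several other scaffold and polarity genes were closer to 0 than these. Tjp1 stood at -0.05 and Tjp3 at -0.12 at D5 in the authors' deposited table, and neither passed. Cgn, which encodes cingulin, stood at -0.06 and the polarity gene Pard3 at 0.06 in the authors' deposited table. At D10, 0 of the 34 measured genes of this list passed in the authors' deposited table. The median was -0.0063, and 1 had an unadjusted p under 0.05 (Ildr2 at 0.24). After rescaling the z values from the authors' deposited table, 2 passed at D10, Ildr2 (adjusted p = 0.0378) and Mpdz (adjusted p = 0.0484). With that rescaling 121 of all 15744 genes passed at D10, in place of 13. Ocln stood at -0.03 at D10 in the authors' deposited table. Its D10 minus D5 difference, computed from the authors' deposited table, was 0.81 with an implied SE of 0.30 and did not pass over the 14792 shared genes (adjusted p = 0.318), among which 1.24% were called.

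**Figure D4:**
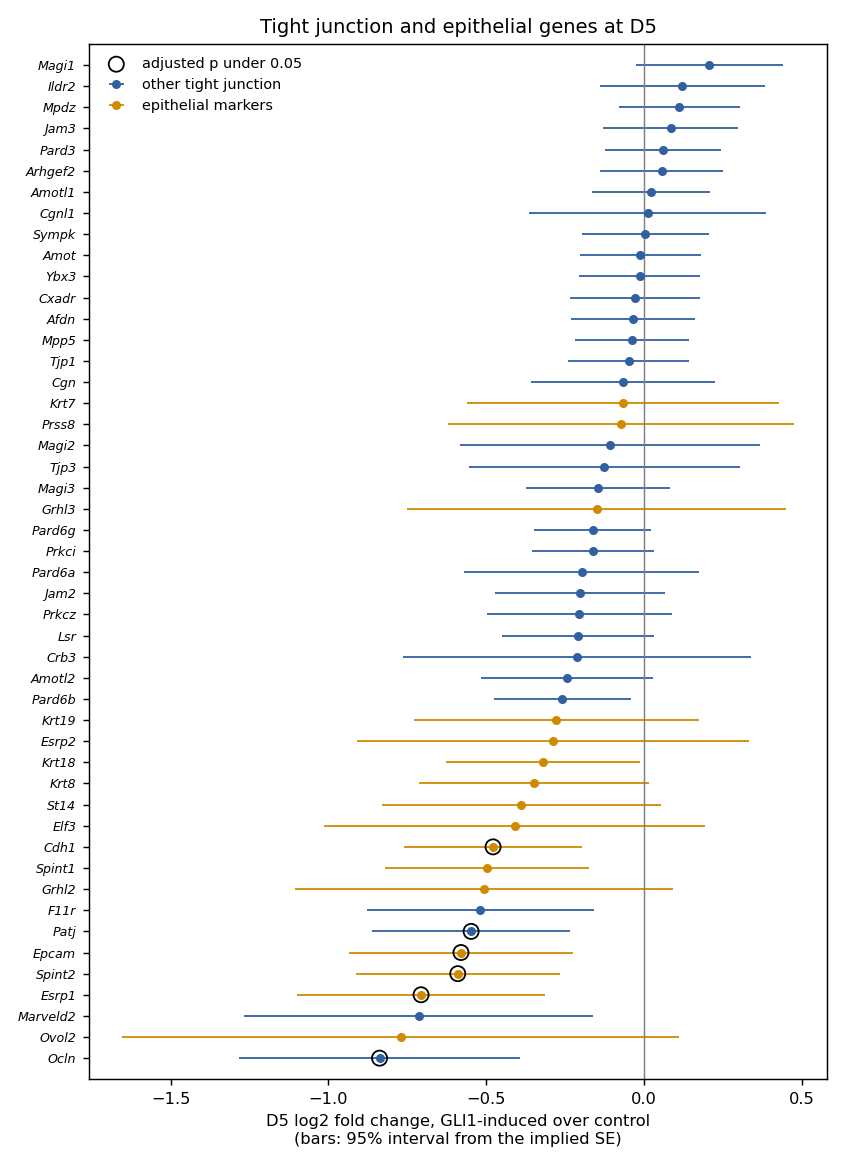
Log2 fold change of induced over control cells at D5 (x axis) for other tight junction genes (blue) and epithelial markers (orange), with 95% intervals from the implied SE; rings mark genes called at an adjusted p under 0.05. The ringed genes all lie below 0, with Ocln lowest at -0.84 and Cdh1 nearest to 0 at -0.48.

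Markers of epithelium stood below 0 together with most claudins at D5. All 16 measured markers had a negative log2 fold change in the authors' deposited table. Their median was -0.40, beside 0.0015 over all genes, of which 7473 of 15108 were below 0. By the test 4 of the 16 were lower, against 2.10% of all genes. These were Esrp1, an epithelial splicing regulator, at -0.71, the protease inhibitor gene Spint2 at -0.59, the adhesion gene Epcam at -0.58 and the E-cadherin gene Cdh1 at -0.48 in the authors' deposited table. Adjusted p ran from 0.0115 for Spint2 to 0.0353 for Epcam. Negative medians at D5 were not particular to epithelium. They were -0.50 for endothelial, -0.53 for endoderm and -0.66 for pluripotent cell markers, with 2 of 7, 4 of 11 and 1 of 8 above 0. For neuron markers the median was -0.14, and for neural progenitor markers it was 0.017. The summed derived level of the 16 epithelial markers was 318.9 CPM in induced cells and 415.9 CPM in control cells. At D10 it was 1807 CPM in induced cells and 1879 CPM in control cells over 18 measured markers, of which 16 were below 0 and 0 passed in the authors' deposited table. The part of this shift in the claudin values was not tested. In a bulk sample, fewer epithelial cells and less RNA per cell cannot be told apart.

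The labelled cell types were checked against their markers. The 8 neural progenitor markers had an average log2 CPM between 6.04 and 9.41 at D5 in the authors' deposited table. At D10 they ran from 4.42 to 9.52. The 8 neuron markers ran from 3.58 to 9.11 at D10 and from 1.82 to 7.72 at D5 in the authors' deposited table. Both sets were thus present on both days, and their ranges overlapped. Gene by gene, all 8 neuron markers had a higher average at D10 than at D5, with a median of 7.65 against 6.36. All progenitor markers but Fabp7 and Vim had a lower average at D10, with a median of 5.73 against 6.98 at D5. The days were normalised separately, and these shifts were not tested. Epithelial keratin RNA was present too, with Krt18 at 9.04 at D10 and 6.63 at D5 in the authors' deposited table. For the cell types that Cldn5 and Cldn11 are known for, 7 of 12 endothelial markers and 5 of 9 oligodendrocyte lineage markers had a value at D5. At D10 these were 7 of 12 and 7 of 9. A value means only that the gene was measured, and it can rest mainly on the cells of a single group. These counts therefore do not show that either cell type was present.

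Genes whose pair of fold changes resembled that of Cldn1 were searched for among 13258 genes measured on both days whose average at D5 was 1 or more on the log2 CPM scale. The measure was the distance between the pairs of log2 fold changes, that is, over 2 comparisons. Most D10 fold changes were close to 0, so the distance rested mainly on the D5 value, for which Cldn1 was chosen. Only 4 other searched genes had a D5 value at or above that of Cldn1. The search thus mostly finds the genes with the largest increases at D5. The nearest was Hprt, with -0.0092 at D10 and 5.32 at D5 in the authors' deposited table. The doxycycline-driven transgene of A2Lox.cre cells sits at Hprt, a purine salvage gene. Gli1 followed with 0.57 at D10 and 4.79 at D5, then the Hedgehog-binding gene Hhip with 0.55 at D10 and 5.31 at D5 in the authors' deposited table. The netrin family gene Ntng1 had 0.02 at D10 and 4.10 at D5, and the ventral homeobox gene Nkx2-9 had 0.36 at D10 and 5.72 at D5 in the authors' deposited table. None of these 5 genes is a claudin. With distance in signed z, 1 of them (Ntng1) stayed among the nearest 5.

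The start of Cldn1 was set beside that of Cldn6, the most abundant measured claudin per length, because GLI1 is a DNA-binding activator and the 2 genes stood on opposite sides of 0 at D5. The windows run from 250 bases before to 50 bases after the annotated start and are from RefSeq on GRCm38.p6. They are written 5′ to 3′ on the strand of the gene. Capitals mark the E-box CACCTG or its reverse CAGGTG, a motif bound by repressors of epithelial genes.
Cldn1 chr16:26371790-26372089 (minus strand): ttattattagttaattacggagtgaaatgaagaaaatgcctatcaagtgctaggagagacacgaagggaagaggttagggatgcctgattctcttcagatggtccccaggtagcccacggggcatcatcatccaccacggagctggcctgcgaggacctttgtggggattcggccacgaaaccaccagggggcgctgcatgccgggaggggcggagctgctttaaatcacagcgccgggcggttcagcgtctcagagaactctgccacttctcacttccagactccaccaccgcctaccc
Cldn6 chr17:23679115-23679414 (plus strand): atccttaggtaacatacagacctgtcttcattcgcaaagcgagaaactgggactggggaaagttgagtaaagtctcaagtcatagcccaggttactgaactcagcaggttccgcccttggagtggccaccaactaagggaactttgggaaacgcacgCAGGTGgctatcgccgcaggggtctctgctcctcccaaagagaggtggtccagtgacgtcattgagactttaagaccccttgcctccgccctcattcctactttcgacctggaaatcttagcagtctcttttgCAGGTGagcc
The GLI motif GACCACCCA, searched on both strands, was in 0.253% of all 32851 promoter windows, and its 7-letter core CCACCCA, which lies within it, was in 9.30%. Counted by gene, these shares were 0.289% and 10.6%. Neither was in a window of any of the 7 measured claudins, and 0 of 7 is near those shares. The E-box was in the windows of 4 of the 7 (Cldn3, Cldn4, Cldn6 and Cldn7), against 22.6% of all 27025 genes with a window. The windows of Cldn1, Cldn10 and Cldn12 did not hold these letters. A match is a description of the letters, and a missing match says nothing about binding elsewhere.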

How the data were processed

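Polyadenylated RNA of 14 libraries in 4 groups was sequenced as single-end reads of 50 bases, per the labels' protocols. For the aligner, read counting, test and genome build, the sources used here state nothing. Per the file headers, the authors' deposited columns for each Entrez gene and day are the log fold change, the average log CPM, the p-value and the FDR. That the deposited averages are log2 CPM was checked by summing 2 raised to each, which gave 1001540 for D5 and 1001340 for D10. The fold changes were taken as log2 too. The deposited FDR equals a Benjamini-Hochberg adjustment of the authors' p-values within 3.41e-05. There are 15108 genes for D5 and 15744 for D10. Symbols were matched by Entrez identifier to RefSeq (GRCm38.p6) for 94.6% on either day.

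A signed z was computed from p, and the implied SE is the size of the log2 fold change over that of z. It inherits every assumption of the authors' test. Intervals are 95% intervals under a normal reference. Group levels were derived by taking the average as the log2 of the mean CPM in equal groups. A low prior count in such averages would raise the levels of rare genes. The difference between days was tested with a normal reference and Benjamini-Hochberg adjustment over shared genes. The step was also run on data simulated with the same implied SEs, which cannot show whether those SEs are right. Coding sequences were aligned with MAFFT 7.526. Computation used Python 3.11.15 with scipy 1.17.1. The members and lists were chosen with earlier results of these data known. All listed claudins, other claudins in the tables, called tight junction genes, up to 4 called markers of a list and the 5 genes nearest to Cldn1 are named. F11r, Marveld2, Tjp1, Tjp3, Cgn, Pard3, Ildr2, Mpdz, Krt18 and Tnfrsf12a were named after their values were seen, as were some genes beside the claudins. Called markers of lists other than epithelium, and 1 tight junction gene, are not reported here. Alternatives were other thresholds, a 2-fold minimum, a filter on average log2 CPM, Holm's adjustment and a rescaling of z, which sets the median size of z in bins of about 500 genes to that of a standard normal.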

Additional observations from a re-analysis of the deposited data

Results flagged for a closer look

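Cldn1 was the one claudin whose response differed between the days by a wide margin. Its log2 fold change was -0.31 at D10, against 4.99 at D5, in the authors' deposited table, a difference of -5.30 (implied SE 0.40). No p is given for it, because the gene was chosen for its D5 value. No cause was tested.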

How the results depend on the processing

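Of the 7 claudins measured at D5, 2 were called in place of 1 with a threshold of 0.1 on adjusted p, and 2 with rescaled z; the added gene was Cldn6 both times. The claudin count at D5 stayed at 1 under the other 4 alternatives, and the count at D10 stayed at 0 under all 6. Of the other tight junction genes at D5, 1 passed at 0.01, 0 with a 2-fold minimum and 0 with Holm's adjustment, in place of 2. At D10, 2 passed with rescaled z in place of 0. Over all genes at D5, 433 passed at 0.01, 250 with a 2-fold minimum, 242 with Holm's adjustment and 771 with rescaled z, in place of 671. Over all genes at D10, 6 passed with a 2-fold minimum and 121 with rescaled z, in place of 13; the cause was not tested. The median of the claudins ran from -0.43 to -0.38 at D5 and from -0.06 to -0.04 at D10. Of 26 derived levels, 2 moved by more than 1 implied SE when the average was read as a mean of logs, both of Cldn1 at D5, by 2.91-fold. The others moved by at most 1.18-fold. No paired analysis was possible because the files hold no values per library, and leaving out replicates could not be run for the same reason. The depth per library is unknown.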

Other observations

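The annotated neighbours of the claudin genes gave further values at D5. On one side of Cldn1, P3h2, a collagen prolyl hydroxylase gene, stood at 0.42 in the authors' deposited table (adjusted p = 0.112), and Trp63, a regulator of stratified epithelium, at -0.26 (adjusted p = 1). On the other side, the nearest gene with a value was Il1rap at -0.08 in the authors' deposited table (adjusted p = 1). None of these neighbours passed, and all were within 0.42 of 0 where Cldn1 stood at 4.99. Beside Cldn6, the receptor gene Tnfrsf12a had nearly the same value as Cldn6 at D5, -0.51 in the authors' deposited table, and narrowly missed the threshold (adjusted p = 0.05004). The other measured genes beside Cldn6 ran from -0.23 to 0.06 in the authors' deposited table. Beside Cldn3 and Cldn4, the measured genes Mettl27, Abhd11, Stx1a and Bud23 ran from -0.18 to 0.08 at D5 in the authors' deposited table.

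Genes of the wider claudin superfamily did not pass on either day as deposited. Emp1, an epithelial membrane protein gene, had the largest value at D5, 0.70 in the authors' deposited table (adjusted p = 0.303), and stood at -0.08 at D10. Its average log2 CPM was 5.81 at D10 and 0.37 at D5 in the authors' deposited table. Tmem47 stood at 0.27 at D10 and 0.03 at D5 in the authors' deposited table. After rescaling the z values from the authors' deposited table, Tmem47 passed at D10 (adjusted p = 0.00391), the one gene of this group to do so on either day. With that rescaling 121 of all 15744 genes passed at D10, in place of 13. Pmp22, a myelin protein gene, stood at -0.11 at D10 and -0.13 at D5 in the authors' deposited table.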
